A study of Mus musculus with 2 samples.

Results

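Chemokines and chemokine receptors were examined in the mouse aorta, in a comparison of the aortic arch, which is prone to atherosclerosis, with the central thoracic aorta, which resists it. Genes were taken by name: every probe that the array files call Ccl, Ccr, Cxcl, Cxcr, Xcl, Xcr, Cx3cl or Cx3cr followed by a number. The array carried 67 such probes for 51 genes, of which 35 encode ligands and 16 encode receptors. A gene was measured if a probe of it stood well above background in at least 1 region on both arrays, and 41 genes met this (28 ligands and 13 receptors) among 21367 measured genes or transcripts in all. The arch and thoracic samples both came from untreated wild-type C57Bl/6 mice, an inbred strain, aged 16 weeks. For each region the RNA of 6 animals, 3 males and 3 females, was combined into 1 pool. The arch sample held the root, the arch and the adjoining 2 mm of thoracic aorta, and the thoracic sample held the next 6 mm. All aortas had been perfused with Triton X-100, a detergent, to strip the endothelium, so neither pool represents the intact wall. Markers of macrophages, fibroblasts, adipocytes and mesothelium stood well above background in both regions, so neither pool is smooth muscle alone. Both pools were put on each of 2 two-colour arrays with exchanged dyes: Cy5 labelled the arch on array 1, and Cy3 labelled it on array 2.

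Chemokines are small secreted proteins that draw leukocytes along concentration gradients, and they are grouped by the spacing of their first cysteines into CC, CXC, XC and CX3C families. They act on receptors of the G protein-coupled class, and many ligands share a receptor. In the artery wall they are best known for the recruitment of monocytes, through Ccl2 and its receptor Ccr2, during the growth of atherosclerotic plaques.

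The sequences just upstream of a few ligand genes are shown because these ligands gave some of the lowest values in the arch or, for Cxcl7 and Cxcl4, because neighbouring genes gave values of opposite sign. Each is the run of 250 bases that ends at the base before the annotated start of the gene, from RefSeq (GRCm38.p6), written in the direction of transcription. Capitals mark TATAAA, the core promoter motif, searched on both strands.
Ccl8, chr11:82114935-82115184, + strand: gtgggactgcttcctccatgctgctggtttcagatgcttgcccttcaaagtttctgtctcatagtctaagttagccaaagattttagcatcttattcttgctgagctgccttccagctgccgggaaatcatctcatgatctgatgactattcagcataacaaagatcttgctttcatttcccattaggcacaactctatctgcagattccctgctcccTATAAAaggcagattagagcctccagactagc
Ccl12, chr11:82101595-82101844, + strand: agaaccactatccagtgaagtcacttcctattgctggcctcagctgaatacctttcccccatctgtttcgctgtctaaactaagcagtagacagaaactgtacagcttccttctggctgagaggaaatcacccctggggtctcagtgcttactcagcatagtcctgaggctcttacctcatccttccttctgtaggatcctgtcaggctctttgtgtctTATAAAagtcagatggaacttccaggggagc
Cxcl13, chr5:95956689-95956938, + strand: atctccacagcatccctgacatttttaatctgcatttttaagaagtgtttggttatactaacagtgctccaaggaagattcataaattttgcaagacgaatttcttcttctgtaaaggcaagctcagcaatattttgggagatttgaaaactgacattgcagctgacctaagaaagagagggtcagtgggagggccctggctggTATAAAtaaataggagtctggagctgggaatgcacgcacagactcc
Cxcl7, chr5:90768268-90768517, + strand: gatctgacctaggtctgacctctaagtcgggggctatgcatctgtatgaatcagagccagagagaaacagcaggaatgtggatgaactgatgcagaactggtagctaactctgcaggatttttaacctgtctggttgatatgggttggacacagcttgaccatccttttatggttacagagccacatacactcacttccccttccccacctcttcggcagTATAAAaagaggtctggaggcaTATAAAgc
Cxcl4, chr5:90772185-90772434, + strand: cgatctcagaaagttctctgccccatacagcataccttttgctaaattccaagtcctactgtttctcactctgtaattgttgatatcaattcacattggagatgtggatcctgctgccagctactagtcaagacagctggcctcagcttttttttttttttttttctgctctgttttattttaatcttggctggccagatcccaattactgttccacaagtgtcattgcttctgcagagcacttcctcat
TATAAA began 32 bases upstream of the start in Ccl8 and 31 bases upstream in Ccl12, and it began 46 bases upstream in Cxcl13. Cxcl7 held it 30 and 8 bases upstream, and these letters were not in the Cxcl4 window. Of all 32851 promoters of this length, 12.4% held TATAAA. Promoters were listed for 32 of the 41 measured genes, and 12 of them held it in at least 1 listed promoter. A match anywhere in the window counted, from 6 bases upstream in Cx3cl1 to 224 bases upstream in Ccl9. Genes with more than 1 listed promoter had more room for a match than the single promoters behind the shares. The consensus of NF-kappaB, present in 7.25% of all promoters, was found in 5 of these 32 genes. The AP-1 motif TGANTCA was found in 5 genes (6.75% of all promoters) and the GAS motif TTCNNNGAA in 4 (7.02%). Among the 6 genes with a listed promoter and a mean log2 ratio of -0.25 or below, TATAAA was found in 4, and NF-kappaB and TGANTCA in 1 each, in both cases Ccl9.

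Each gene's value is its mean log2 ratio, arch over thoracic aorta, and ± gives how far each array deviates from this mean. This spread covers the arrays alone, since each region was 1 pool. A difference between the regions therefore has no biological replicate, and no test was possible. Levels are normalised intensities in array units, which include an added offset of 50 and cannot be compared between probes. Negative control spots had medians of 10.3 and 25.9 units above local background in the arch channels (arrays 1 and 2), against 27.1 and 9.90 in the thoracic channels. Of the 49 measured member probes, 49 and 46 exceeded the 95th percentile of the negative controls in the arch channels and 48 and 49 in the thoracic channels. Ccl4, Ccr8 and Cxcl9 lay under it in the arch on array 2, and Cxcl9 also in the thoracic aorta on array 1. The well-above-background flag was also set for 0% and 10.8% of the negative control spots in the arch channels. In the thoracic channels it was set for 6.69% and 1.91%. Passing the filter is thus no firm sign of detection for the dimmest genes. The share of controls passing on both arrays was not counted. No member probe was saturated. All 7 smooth muscle markers were measured, with a median log2 ratio of -0.00. Of these, Myh11 (-0.22) and Des (-0.22) lay below 0 on each array, and the others had opposite signs on the arrays. Among 7 endothelial markers, 6 were measured, Tie1 not, with a median of 0.02. Vwf (0.26), Kdr (0.18) and Nos3 (0.06) lay above 0 on each array, and Cdh5 (-0.05) lay below 0 on each. In bulk RNA, fewer cells of a type and less RNA per cell cannot be told apart.

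None of the 41 genes reached a 1.5-fold difference in the same direction on each array, where 0.229% of all genes were called lower in the arch and 0.257% higher. Smaller differences leaned to lower values among the ligands. A mean log2 ratio of -0.25 or below was found for 9 genes (22.0%), all of them ligands, against 1.76% of all genes, while 0.25 or above was found for 1 gene, Cxcl7, against 2.49% of all genes. Just outside the lower limit lay the receptor Ccr2, whose mean also rounds to -0.25. Values lay below 0 on each array for 16 genes (39.0%), against 26.5% of all genes, and above 0 on each array for 11 (26.8%), against 28.4%. The median over the 41 genes was -0.02, against 0.00 over all genes, and the lowest values came from some of the ligands only. The 17 CC ligands had a median of -0.09, with -0.06 on array 1 and -0.22 on array 2. The 10 CXC ligands had a median of -0.00, with -0.04 on array 1 and -0.08 on array 2, so neither median is settled by these arrays. The median was -0.01 over all ligands and -0.02 over the receptors.

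**Figure D1:**
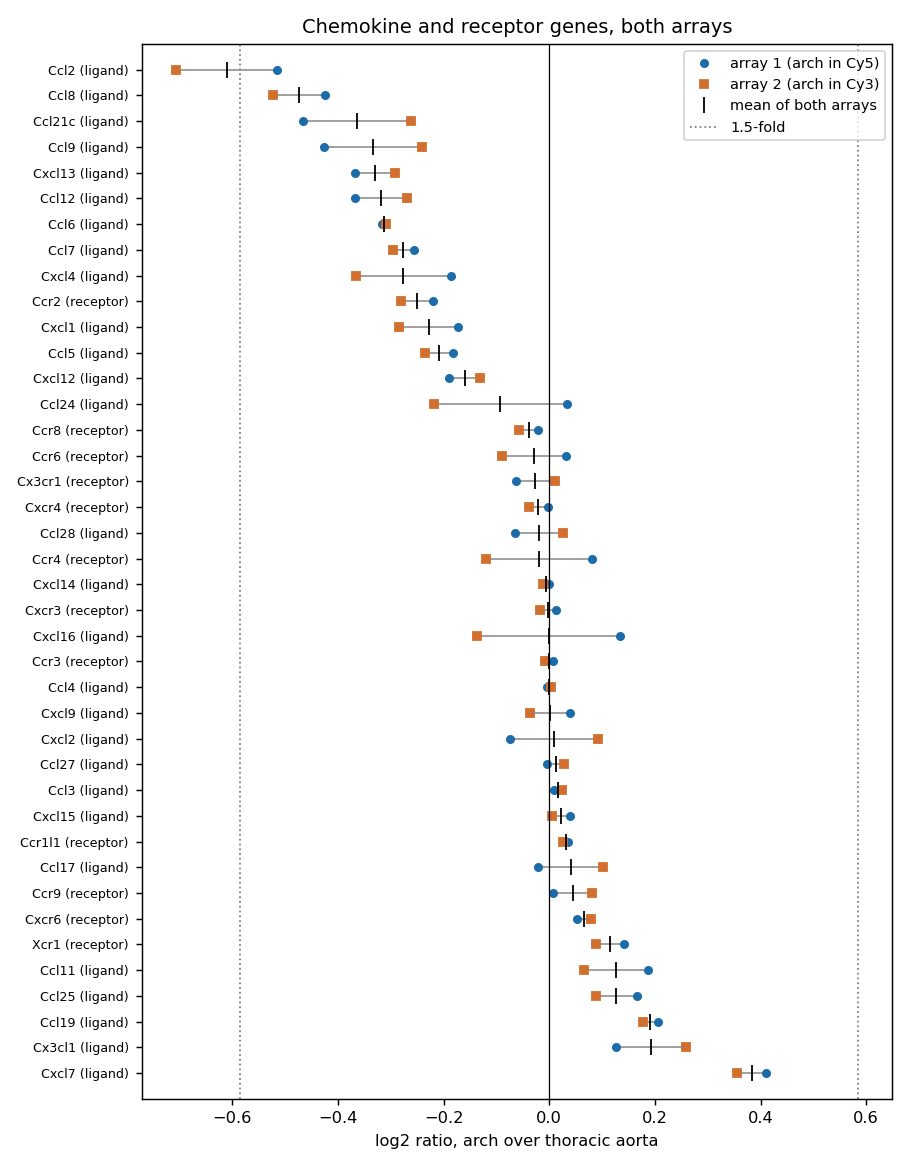
Log2 ratio of arch over thoracic aorta for 40 of the 41 measured chemokine and receptor genes, ordered by mean. Circles are array 1, squares array 2, ticks the mean, and dotted lines mark 1.5-fold. Most genes lie close to 0, and the lowest are ligands, Ccl2 at -0.61 first.

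Ccl2 and its relatives Ccl8, Ccl12 and Ccl7 had values below 0 on each array, and Ccl2 had the lowest of the 41 genes. Ccl2 (MCP-1, the main ligand of Ccr2) had 177 and 176 units in the arch on arrays 1 and 2, against 252 and 288 units in the thoracic aorta. Its log2 ratios were -0.51 and -0.71, with a mean of -0.61 ± 0.10, or 1.53-fold lower in the arch. Ccl2 missed the 1.5-fold rule on array 1 alone. Ccl8, a relative of Ccl2 that in the mouse acts on Ccr8, had 148 and 154 units in the arch, against 198 and 221 units in the thoracic aorta, and its mean was -0.47 ± 0.05. Ccl12 (MCP-5, a mouse ligand of Ccr2) had 131 and 136 units in the arch, against 169 and 163 units in the thoracic aorta, and its mean was -0.32 ± 0.05. These ligands were lower in the arch on each array. Ccl7 (MCP-3, a ligand of Ccr2 and other receptors) had 102 and 105 units in the arch, against 121 and 129 units in the thoracic aorta, and a mean of -0.28 ± 0.02. A dimmer probe for Ccl7 gave -0.16 ± 0.05, lower in the arch on each array as well.

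Ccr2, the receptor of Ccl2, was not called but lay below 0 on each array by its measured probe. This receptor, which marks inflammatory monocytes, had 91.5 and 94.6 units in the arch, against 107 and 115 units in the thoracic aorta, and its mean was -0.25 ± 0.03. Its signal above local background was low, at 42.8 and 60.9 units in the arch, against 74.6 and 73.7 units in the thoracic aorta. With the ratios computed by the scanner software, which add no offset, Ccr2 had a mean of -0.60. Another Ccr2 probe passed the background filter in neither region and gave -0.01 ± 0.03 with opposite signs on the arrays. Ccr8, the receptor of mouse Ccl8, had a mean of -0.04 ± 0.02 with levels between 67.2 and 73.0 units, close to the offset.

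Macrophage markers are given beside this group. None of the 11 was called at 1.5-fold, where 0.229% of all genes were called lower and 0.257% higher. All 11 had means below 0, and 9 of them were below 0 on each array, against 26.5% of all genes. They had a median of -0.09 and a range of -0.35 (Tyrobp) to -0.02 (Fcer1g). Their summed level was 23999 and 21929 units in the arch, against 27006 and 28481 units in the thoracic aorta, and most of each sum was Lyz2. Csf1r (-0.02) also lay near 0, and Itgam (-0.06) had opposite signs on the arrays. The part of these markers in the chemokine values was not tested.

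Ccl6 and Ccl9, rodent CC ligands of Ccr1 that myeloid cells make, were also lower in the arch. Ccl6 had 858 and 903 units in the arch, against 1069 and 1120 units in the thoracic aorta, and the arrays gave nearly the same ratio (-0.31 ± 0.00). Ccl9 had 480 and 508 units in the arch, against 645 and 600 units in the thoracic aorta, with a mean of -0.33 ± 0.09. Their receptor Ccr1 was not measured. Ccl5 (RANTES, a T cell and monocyte attractant) had a mean of -0.21 ± 0.03 by its brighter probe and -0.25 ± 0.07 by the other. Ccl3 (0.02) and Ccl4 (-0.00), inflammatory ligands also called MIP-1 alpha and MIP-1 beta, had levels of 66.9 to 74.4 units and of 68.6 to 69.2 units, near the offset, so a difference was not detectable there.

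**Figure D2:**
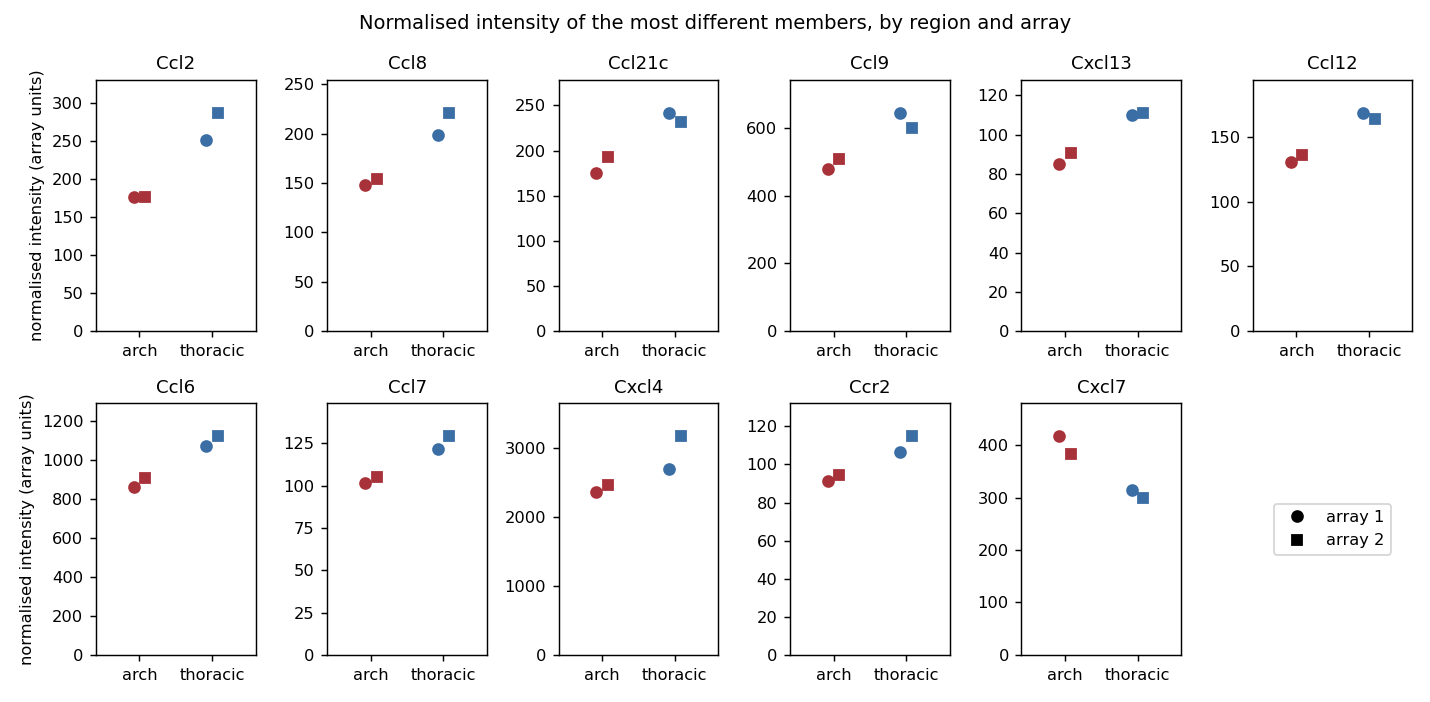
Normalised intensity (array units, linear axis from 0) of 11 genes in the arch (left, red) and thoracic aorta (right, blue). Circles are array 1 and squares array 2, and each region is 1 pool. Genes were picked for a mean of at least 0.25 in size or a call with scanner ratios, with Ccr2 added. A gap between the regions is thus partly built in, and its share over all genes was not counted. The 2 arch points lie below the 2 thoracic points for 10 of the genes, and above them for Cxcl7.

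Ligands that organise lymphoid tissue went in different directions. Cxcl13, the B cell attractant, had 85.3 and 90.8 units in the arch, against 110 and 111 units in the thoracic aorta, with a mean of -0.33 ± 0.04. Its signal above local background was 36.4 and 57.3 units in the arch, against 78.1 and 69.4 units in the thoracic aorta, so the offset made up much of its level. Ccl21c, a ligand of Ccr7 that lymphatic vessels make, had 175 and 193 units in the arch, against 242 and 231 units in the thoracic aorta, with a mean of -0.36 ± 0.10. The Ccl21 genes of the mouse are near-identical copies, so this probe may report several of them. Lyve1, a marker of lymphatic endothelium and of some macrophages, had a mean of -0.33 ± 0.00. The other lymphatic markers did not follow it: Flt4 had 0.12 ± 0.04, Prox1 (-0.03) and Pdpn (-0.08) had opposite signs on the arrays, and the median of the 4 was -0.06. Their part in the Ccl21c value was not tested.

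Ccl19, the other ligand of Ccr7, lay above 0 on each array. Its brighter probe had 3454 and 3678 units in the arch, against 2996 and 3255 units in the thoracic aorta, a mean of 0.19 ± 0.01, and the other probe gave 0.14 ± 0.00. The value was 0.02 when each array was centred on its median without loess, with 0.16 on array 1 and -0.13 on array 2. The other probe then had a mean of -0.03, so the size and direction of this difference rest on the normalisation. Ccr7 was not measured.

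The platelet chemokines pointed in opposite directions. Cxcl7 (Ppbp, the precursor of the neutrophil attractant NAP-2) had 417 and 383 units in the arch, against 314 and 299 units in the thoracic aorta, with a mean of 0.38 ± 0.03. Cxcl4 (Pf4, platelet factor 4) had 2367 and 2463 units in the arch, against 2694 and 3175 units in the thoracic aorta, with a mean of -0.28 ± 0.09. Levels did not overlap between the regions for either gene, which is partly built in because both were picked for the size of their mean. The share of all genes without overlap was not counted. The other platelet markers had means of 0.28 for Gp9, 0.06 for Gp1bb and -0.05 for Itga2b. Itga2b lay near the offset, at 65.5 to 69.3 units, and was well above background in the arch on 1 of 2 arrays only. The part of these markers in the values of Cxcl7 and Cxcl4 was not tested.

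Among the other attractants of neutrophils, Cxcl1 lay below 0 on each array. Cxcl1 (KC, a ligand of Cxcr2) had 96.2 and 93.2 units in the arch, against 108 and 114 units in the thoracic aorta, with a mean of -0.23 ± 0.06 that was -0.50 with scanner ratios. Cxcl2, another ligand of Cxcr2, had a mean of 0.01 ± 0.08 with opposite signs on the arrays, and it stood well above background in the arch on 1 of 2 arrays only. Cxcl15 (lungkine) had a mean of 0.02 ± 0.02, and Cxcl5 was not measured. The neutrophil markers S100a8 and S100a9 had means of 0.33 ± 0.15 and 0.67 ± 0.12 and were not called, and Ngp and Camp were not measured. With scanner ratios S100a9 had 0.93 and was called higher, against 0.711% of all genes. Their part in the values of these ligands was not tested.

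Cxcl12 (SDF-1, the ligand of Cxcr4) had 1353 and 1354 units in the arch, against 1543 and 1484 units in the thoracic aorta by its brighter probe, with a mean of -0.16 ± 0.03. A dimmer probe, designed to another Cxcl12 transcript, had 180 and 182 units in the arch, against 239 and 223 units in the thoracic aorta, with a mean of -0.35 ± 0.06. The probes thus agreed in direction and differed in size. Cxcr4 had a mean of -0.02 ± 0.02 at levels of 70.8 to 73.0 units.

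Another Cxcl12 receptor, Ackr3 (Cxcr7), carries an older name on the array and so lay outside the naming rule. It was looked up after the values were seen. Ackr3 had 1784 and 1939 units in the arch, against 1269 and 1225 units in the thoracic aorta, with log2 ratios of 0.49 and 0.66 and a mean of 0.58 ± 0.09. It was 1.49-fold higher in the arch, and array 1 lay under the 1.5-fold threshold. By these ratios the difference was larger than that of any receptor under the rule. With scanner ratios, which add no offset, Ackr3 (0.60) and Ccr2 (-0.60) were nearly equal in size. Ackr3 stayed larger in size than Ccr2 with an offset of 0 (0.60 against -0.50) and with median centring (0.41 against -0.28). Cxcr5, also under an older name, had a mean of 0.01 ± 0.03, and Cxcr1, Cxcr2, Cxcl3 and Cxcl17 were not measured.

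Eosinophil attractants that act on Ccr3 showed little. Ccl11 (eotaxin) had 936 and 883 units in the arch, against 823 and 844 units in the thoracic aorta, with a mean of 0.13 ± 0.06 that turned to -0.04 with median centring. Ccl24 (eotaxin-2) had a mean of -0.09 ± 0.13 with opposite signs on the arrays by the brighter probe and -0.11 ± 0.02 by the other. The probes for Ccr3 gave -0.00 ± 0.01 and 0.07 ± 0.00.

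Cx3cl1 (fractalkine, a membrane-bound ligand that also tethers monocytes) had 182 and 200 units in the arch, against 167 and 167 units in the thoracic aorta, with a mean of 0.19 ± 0.07. Its receptor Cx3cr1, a marker of patrolling monocytes and tissue macrophages, gave -0.03 ± 0.04 and -0.01 ± 0.07 by its probes. Cxcl16, a scavenger receptor and ligand of Cxcr6, gave 0.13 on array 1 and -0.14 on array 2, the largest disagreement between the arrays among the 41 genes, and its other probe gave -0.08 ± 0.06. Cxcr6 had a mean of 0.07 ± 0.01.

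The remaining genes lay between -0.03 and 0.13. Ccl25, the ligand of Ccr9 in thymus and gut, had a mean of 0.13 ± 0.04, and Ccr9 had 0.04 ± 0.04. Xcr1, the receptor of cross-presenting dendritic cells, had 0.11 ± 0.03, a value that was -0.00 with median centring. Ccl17 (0.04), a ligand of Ccr4, and Ccr4 itself (-0.02) each had opposite signs on the arrays, as did the mucosal and skin ligands Ccl28 (-0.02) and Ccl27 (0.01), and Ccr6 (-0.03), the receptor of Ccl20. Cxcl14 (-0.01), Ccr1l1 (0.03), Cxcl9 (0.00), an interferon-inducible ligand well above background in the arch on 1 of 2 arrays, and its receptor Cxcr3 (-0.00) completed the set. Not well above background in either region on both arrays were the ligands Ccl1, Ccl20, Ccl22, Cxcl5, Cxcl10, Cxcl11 and Xcl1 and the receptors Ccr1, Ccr7 and Ccr10.

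Many of these genes lie in clusters, and the values changed between neighbours. On chromosome 11, in RefSeq order, Ccl2 (-0.61) and Ccl7 (-0.28) precede Ccl11 (0.13), followed by Ccl12 (-0.32) and Ccl8 (-0.47). Ccl11 thus had a value above 0 on each array between neighbours that all lay below 0, although its sign turned with median centring. Further along the chromosome, Ccl5 (-0.21), Ccl9 (-0.33) and Ccl6 (-0.31) are followed by Ccl3 (0.02) and Ccl4 (-0.00). On chromosome 5, Cxcl7 (0.38) is the direct neighbour of Cxcl4 (-0.28), and on chromosome 9 Ccr2 (-0.25) directly follows Ccr3 (-0.00).

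**Figure D3:**
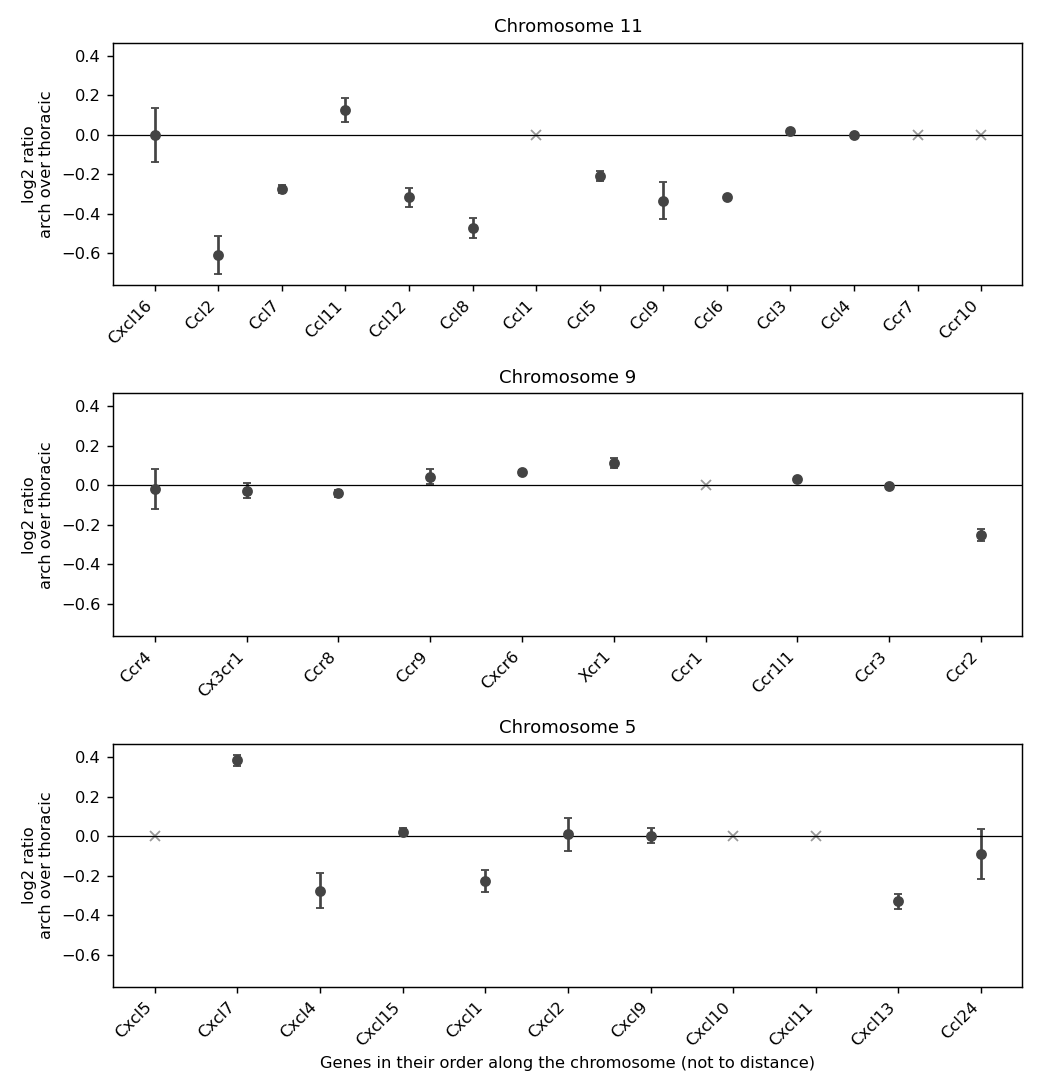
Mean log2 ratio of arch over thoracic aorta against gene order on chromosomes 11, 9 and 5, with bars that span the values of both arrays. Grey crosses at 0 are genes that were not measured, and spacing is not to distance. On chromosome 11 most genes of the Ccl2 cluster lie below 0 and Ccl11 lies above it.

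How far the lowest genes passed the threshold depended on the background handling. With the ratios of the scanner software, 3 of the 41 genes were called lower in the arch, namely Ccl2 (-0.83), Ccl8 (-0.69) and Cxcl13 (-0.80), against 0.599% of all genes, and none was called higher, against 0.711%. With an offset of 0, the same 3 genes were called lower, against 0.487% of all genes, and none higher, against 0.548%. The offset draws ratios of dim genes toward 0. Cxcl13 differed most among these, with -0.33 at offset 50 and -0.68 at offset 0, while the bright Cxcl4 had -0.28 by each. Scanner ratios were also larger in size for Ccl12 (-0.52), Ccl7 (-0.50) and Cxcl1 (-0.50). With median centring in place of loess, bright genes moved down: Ccl6 had -0.48, Cxcl4 -0.45 and Cxcl7 0.24, and Ackr3 had 0.41.

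**Figure D4:**
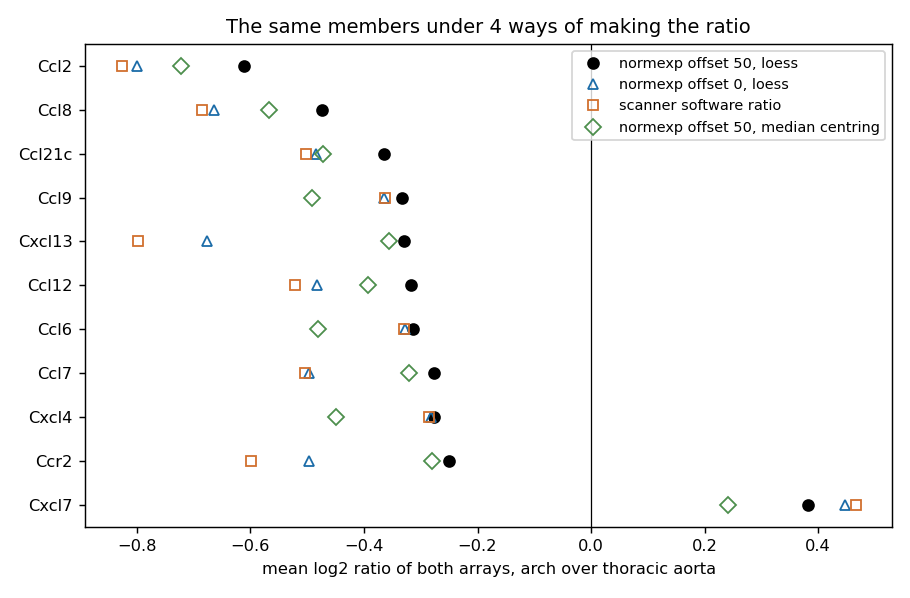
Mean log2 ratio of arch over thoracic aorta for 11 genes under 4 ways of making the ratio. Every gene keeps its side of 0, and the dim genes Cxcl13 and Ccr2 spread most between the settings with an offset of 50 and those without it.

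Brightness also limited what could be seen. All measured genes were ranked by intensity and split into 3 equal classes, and the 14 chemokine and receptor genes of the dimmest class had means of -0.04 to 0.07. The 15 genes of the middle class ranged from -0.47 to 0.19, and the 12 genes of the brightest class ranged from -0.61 to 0.38. Values of -0.25 or below were found for 0.295%, 1.5% and 3.47% of all genes in the dimmest, middle and brightest classes.

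Other genes of chemokine biology gave no call at 1.5-fold with the offset of 50. Over all genes, 0.229% were called lower in the arch and 0.257% higher, so counts of 0 lie near that share. Of 13 chemokine genes and regulators under other names, 0 were higher and 0 lower, with a median of -0.03. Besides Cxcl7 and Cxcl4, Dpp4, a protease that trims chemokines, had a mean of 0.28 ± 0.01, and Ackr2, a scavenging receptor of inflammatory CC chemokines, had 0.24 ± 0.08. Rarres2, which encodes the attractant chemerin, had 0.22 ± 0.01. In the signalling chain below the receptors, 22 of 24 listed genes were measured, with 0 higher, 0 lower and a median of -0.03. Its largest values were -0.33 ± 0.00 for Itpr1, a calcium channel of internal stores, 0.29 ± 0.16 for Rac1, a GTPase of cell movement, and -0.24 ± 0.01 for Rgs1, a brake on G protein signalling, whose probe was well above background in the thoracic aorta alone. With scanner ratios Rgs1 had -1.61 and was the only gene of these 3 lists to be called, as lower, against 0.599% of all genes. Its arch signal is only a bound. Of 17 cytokines and regulators that induce chemokines, 16 were measured, with 0 higher, 0 lower and a median of -0.01. Nfkbia, the inhibitor of NF-kappaB, had -0.15 ± 0.00, and the receptors Tlr2 and Tlr4 had 0.10 ± 0.04 and 0.09 ± 0.00.

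Among the cell type lists, 2 of 5 adipocyte markers were called higher in the arch, Adipoq (0.66 ± 0.06) and Plin1 (0.68 ± 0.00), against 0.257% of all genes. Cidec (0.45), Fabp4 (0.34) and Lep (0.03) were not called, and the median was 0.45. All 5 mesothelial markers lay above 0 on each array, with a median of 0.43. None of these 5 was called, and with scanner ratios Upk3b (0.96), Krt19 (0.88) and Wt1 (0.70) were called higher, against 0.711% of all genes. Medians were -0.07 for dendritic cells, -0.03 for T cells, 0.04 for B cells (Ms4a1 0.33), 0.03 for mast cells, 0.06 for platelets and 0.06 for thymus. The fibroblast median of 0.06 covered Lum (0.55) and Pdgfra (0.55), above 0 on each array, and Col1a1 (-0.30), below 0 on each array. The adipocyte and mesothelial values lay on the other side of 0 from the lowest chemokines, and their part in the chemokine values was not tested.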

How the data were processed

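The arch and thoracic pools were read on 2 dye-swapped arrays with Agilent Feature Extraction 9.1.1.1, according to the submitters' processing notes. In the deposited scanner files, each spot has a mean signal and a local background as an intensity, and a log10 ratio of processed signals, per the file headers. The value table deposited by the authors equalled that log10 ratio for 99.9% of features (tolerance 1e-05) once array 2 was turned, which settled its scale and direction; each of its columns has a median of 0.

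Intensities were corrected by normexp (offset 50) and normalised by loess within arrays (limma 3.58.1, R 4.3.3; control spots at weight 0). Outlier spots were removed, array 2 was turned in sign, spots were averaged per probe, and a gene took its brightest kept probe. Levels were scaled between arrays by Aquantile. Symbols were updated through RefSeq.

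Being repeats of the same RNA, the arrays form 1 replicate and allow no test, and their number limits the precision. Over all genes their ratios correlated with r = 0.581 (Spearman 0.248, genes not being independent). Calls needed 1.5-fold on both arrays in 1 direction. Values on each array are given for genes called, called with scanner ratios, or with a mean of at least 0.25 in size. The rules were tested on simulated data. The genes and lists were chosen with earlier results of these data known. The values of 1 measured gene are not reported here.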

Additional observations from a re-analysis of the deposited data

How the results depend on the processing

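The count of 0 chemokine and receptor genes called lower became 3 with an offset of 0, with scanner ratios or with the series' value table (Ccl2, Ccl8 and Cxcl13). It became 1 with median centring (Ccl2, against 0.351% of all genes) and 2 with a 1.3-fold threshold (Ccl2 and Ccl8, against 0.524%), and it ran from 0 to 1 on leaving out an array. The 1 is Ccl2 without array 1 (against 0.314%). No alternative tried gave a gene called higher. The median of the ligands, -0.01, was -0.0963 with median centring and -0.056 when genes had to be well above background in both regions, and it ran from -0.0839 to -0.043 on leaving out an array. The median of the receptors, -0.02, was 0.0058 with scanner ratios or the value table and ran from -0.0179 to 0.0074 on leaving out an array. These medians lie near 0. The stricter filter left 26 ligands in place of 28, and why the medians moved was not tested for any alternative. The 10 genes with a mean of 0.25 or more in size kept their sign in 90 of 90 values over 9 alternatives. Of these values, 29 moved by more than the standard deviation of the gene's 2 array values. That limit is wider than the ± value (for Ccl2, 0.1361 against 0.0962), so fewer values pass it. Many of the 90 could not turn. Both changes of the background filter left these means as they were, averaging probes changed Ccl7 alone, and the value table repeated the scanner ratios. Leaving out an array could not turn them either, since each had the same sign on both arrays. Of the 41 genes, 21 kept their sign under all alternatives, and 7 turned under median centring, which moved the median of all genes to -0.04 and called 28 of them higher and 75 lower, in place of 55 and 49. Depth was limited by signal over background: the dimmest genes lie close to the negative controls. No paired analysis was possible because each region is 1 pool and the arrays are technical repeats.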
